A study of Caenorhabditis elegans with 2 samples.

Results

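The translation initiation and elongation factor genes of Caenorhabditis elegans were examined for binding by SAEG-2 in a chromatin immunoprecipitation and sequencing (ChIP-seq) experiment on L4 larvae. They were taken from the Ensembl annotation of WBcel235 by symbol, as protein-coding genes whose names begin with eef- or eif-, together with ife-1 to ife-5, ifg-1, iff-1 and iff-2. The rule gave 39 of the 19973 nuclear protein-coding genes: 6 elongation factor genes (eef-), 2 eIF5A genes (iff-) and 31 initiation factor genes (eif-, ife- and ifg-). The eIF5A genes carry an initiation factor name, but the protein acts in elongation, so they were kept apart from both groups. Among the genes with eif- symbols, eif-4A3 encodes the helicase of the exon junction complex and eif-6 a factor that keeps the large ribosomal subunit from joining, and both were kept with the initiation factors. The symbol rule does not take inf-1, the gene of the initiation helicase eIF4A, which is therefore not among the 39. Any other factor gene whose symbol falls outside the rule is left out as well.

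The samples were 2 biological replicates of 1 group of whole L4 larvae, grown for 48 h from populations synchronised by bleaching and L1 starvation. All worms were of strain RW12230, in which CRISPR placed TY1, EGFP and 3xFLAG on SAEG-2 at its own locus on chromosome III (allele st12230), and the antibody was raised against GFP. Both replicates come from this 1 strain, and no untagged strain and no control precipitation was analysed here. Each list derives in part from a further file of unstated kind, so whether the authors called the peaks against a control is not known. SAEG-2 occupancy therefore cannot be told apart from enrichment that open or transcribed chromatin gives with any antibody. The lists hold peaks alone, so the presence of the tag itself could not be checked, and whole larvae mix all tissues, so fewer bound cells and less binding per cell cannot be told apart.

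Translation begins when eIF2 brings the initiator tRNA to the small ribosomal subunit, eIF3 organises the subunit, and the complex eIF4F, built from the cap-binding protein eIF4E, the scaffold eIF4G and the helicase eIF4A, recruits the mRNA. eIF2B recharges eIF2 with GTP after each round. In elongation, eEF1A delivers aminoacyl-tRNA, the eEF1B complex recharges eEF1A, eEF2 moves the ribosome along the mRNA, and eIF5A, the protein that carries hypusine, relieves stalled ribosomes. SAEG-2 works in the nucleus as a partner of SAEG-1, downstream of the cGMP-dependent kinase EGL-4.

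A gene was called bound where a peak summit lay between 1000 bp upstream and 500 bp downstream of any of its annotated 5′ ends. Calls were made on the authors' conservative list of 1145 peaks, which was derived from both replicates, and on the thresholded lists of replicate 1 (452 peaks) and replicate 2 (541 peaks). A peak's signal is the authors' value, whose scale is not stated, so it was used only to describe and rank peaks within a list. The irreproducible discovery rate (IDR) is lower where peaks rank alike in the compared peak sets, and it is given as −log10 IDR, for which the authors' threshold of 0.01 is a value of 2. Read depth is unknown, since the lists hold no read totals.

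SAEG-2 peaks lay at the majority of elongation factor genes and at few initiation factor genes. In the conservative list 4 of 6 elongation factor genes were bound, eef-2, eef-1G, eef-1A.2 and eef-1B.1, against 2 of 31 initiation factor genes, eif-2Bgamma and eif-3.C. Of the eIF5A genes, iff-2 was bound and iff-1 was not. In all, 7 of 39 translation factor genes were bound (17.9%, 95% Wilson interval 8.98 to 32.7%), against 3.10% of all protein-coding genes. The share was 66.7% of elongation factor genes (30.0 to 90.3%) and 6.45% of initiation factor genes (1.79 to 20.7%). The intervals cover counting error only, and with so few genes that share families no test was run between the groups.

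The replicates gave the same order of the groups. In replicate 1's thresholded list 3 of 6 elongation factor genes (18.8 to 81.2%) and 0 of 31 initiation factor genes (0 to 11.0%) were bound, against 1.48% of all protein-coding genes. In replicate 2's list 3 of 6 elongation factor genes (18.8 to 81.2%) and 1 of 31 initiation factor genes (0.572 to 16.2%) were bound, against 1.63% of all protein-coding genes. The 3 elongation factor genes were eef-2, eef-1G and eef-1A.2 in both, and iff-2 was bound in both as well. The initiation factor gene of replicate 2 was eif-3.C.

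**Figure D1:**
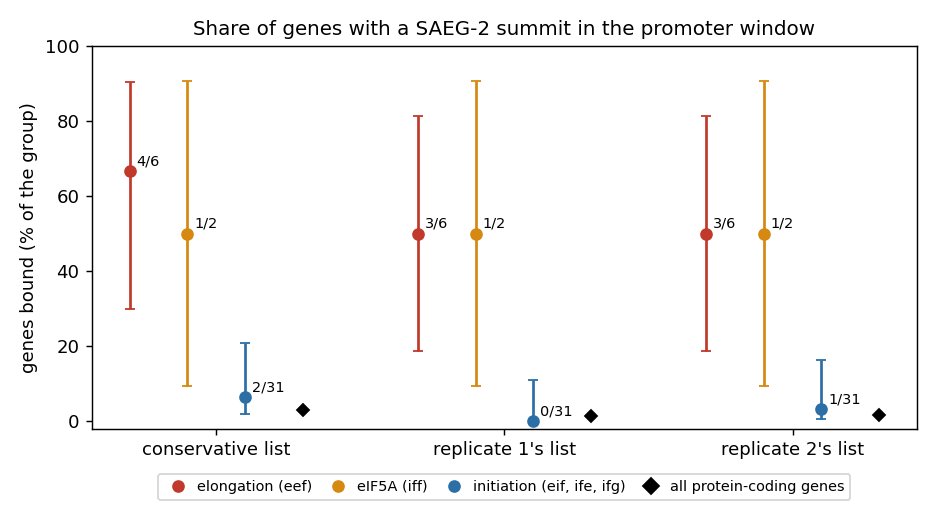
Percent of genes bound (vertical axis) among elongation factor genes, eIF5A genes and initiation factor genes, with 95% Wilson intervals as bars and the counts beside the points, and among all protein-coding genes as diamonds, in the conservative list and in each replicate's list. Elongation factor genes stand at 66.7%, 50% and 50%, and initiation factor genes at 6.45%, 0% and 3.23%.

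Among the elongation factors, eef-2, which encodes the translocase eEF2, carried the strongest peak. The gene (WBGene00001167) lies on chromosome I from 9163531 to 9166952 on the plus strand, and its peak covered 9163353 to 9163656, in intergenic sequence. The conservative signal was 202, rank 89 of 1145, with a −log10 IDR of 4.32. Replicate 1 had a signal of 108 there and replicate 2 had 90.9. The summits of the separately called peaks lay 27 and 26 bp upstream of the nearest 5′ end, so the replicates placed the peak within 1 bp of each other.

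The remaining bound elongation factor genes all belong to the eEF1 complex, which eEF1A and its exchange factor eEF1B form. The gene eef-1G (WBGene00008920, chromosome V, 10965719 to 10967922, plus strand), the gamma subunit, had a conservative signal of 155, rank 173, with a −log10 IDR of 3.87, and signals of 78.3 in replicate 1 and 80.7 in replicate 2. Its peak covered 10965541 to 10965844, with the summit 26 bp upstream of a 5′ end, and the replicates' summits were 32 bp apart. The eEF1A gene eef-1A.2 (WBGene00001169, chromosome X, 7823654 to 7825769, plus strand) had a conservative signal of 138, rank 222, with a −log10 IDR of 3.60, and signals of 70.9 in replicate 1 and 68.1 in replicate 2. Its peak (7823178 to 7823481) stood farther from the gene than the others of the elongation factors, with the summit 324 bp upstream of the only annotated 5′ end and replicate summits at 312 and 375 bp upstream.

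The gene eef-1B.1 (WBGene00018846, chromosome III, 7972382 to 7973386, minus strand), which encodes a nucleotide exchange subunit for eEF1A, was the weakest of the 4 and the one that neither replicate's thresholded list held. Its conservative signal was 91.1, rank 674, with a −log10 IDR of 2.81, and its peak covered 7973205 to 7973508, with the summit in the annotated 5′ UTR, 29 bp downstream of the 5′ end. In the ranked lists, which hold peaks of any IDR, the peak was present in both replicates, with a signal of 50.2 and a −log10 IDR of 1.28 in replicate 1 and a signal of 48.8 and a −log10 IDR of 1.05 in replicate 2. Each replicate alone thus placed it under the threshold of 2.

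The gene iff-2 (WBGene00002065, chromosome II, 8559375 to 8561367, minus strand), which encodes eIF5A, was close to eef-2 in signal. It had 193 in the conservative list, rank 100, with a −log10 IDR of 4.25, and 93.9 in replicate 1 and 94.0 in replicate 2. The peak covered 8561277 to 8561580 with its summit 62 bp upstream of a 5′ end. The replicates' summits lay 49 and 45 bp upstream.

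At neither bound initiation factor gene did both replicates hold the peak at the threshold, as at eef-1B.1. The gene eif-3.C (WBGene00001226, chromosome I, 9976426 to 9979662, minus strand), a subunit of eIF3, had a conservative signal of 84.9, rank 793, with a −log10 IDR of 2.64 and a summit 249 bp upstream, in a peak from 9979759 to 9980062. Replicate 2 held it with a signal of 52.4 and a −log10 IDR of 2.07, while in replicate 1 it was a ranked peak alone, with a signal of 40.7 and a −log10 IDR of 1.43. The strongest ranked summits lay close together, at 244 bp upstream in replicate 1 and 247 bp upstream in replicate 2.

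The gene eif-2Bgamma (WBGene00004090, chromosome II, 6965800 to 6967648, minus strand), a subunit of eIF2B, had a conservative signal of 97.0, rank 571, with a −log10 IDR of 2.92. Neither thresholded replicate list held the peak: the ranked signal was 47.3 with a −log10 IDR of 1.80 in replicate 1 and 57.7 with a −log10 IDR of 1.85 in replicate 2. The summit lay 828 bp upstream, within an intron of C15F1.5 and inside the small nuclear RNA gene sup-39 (6968394 to 6968558, minus strand). The strongest ranked summit lay 956 bp upstream in replicate 1, outside sup-39, and 832 bp upstream in replicate 2, inside it. Of the 66 words of 36 bases in the 50 bases on either side of this summit, 16.7% occurred once in the genome, against 100% around each of the other 6 summits. The sources used here do not give how reads that match several places were treated. Without summits inside small RNA genes, a setting chosen after seeing the data, 1 of 31 initiation factor genes was bound, against 2.97% of all protein-coding genes.

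The sequences around 4 of these summits are given below for what they share and for the small RNA gene under the eif-2Bgamma summit. Each runs from 50 bases before to 50 bases after the conservative summit in ce11 (WBcel235, RefSeq copy), read 5′ to 3′ on the strand of the factor gene. Capitals mark a run of 15 bases common to the eef-1A.2 and eef-1G windows, and in the eif-2Bgamma window the bases that lie inside sup-39, which is the whole window. The iff-2 window holds neither. They cover chrX:7823280-7823380 (plus) for eef-1A.2, chrV:10965643-10965743 (plus) for eef-1G, chrII:8561379-8561479 (minus) for iff-2 and chrII:6968426-6968526 (minus) for eif-2Bgamma.
eef-1A.2: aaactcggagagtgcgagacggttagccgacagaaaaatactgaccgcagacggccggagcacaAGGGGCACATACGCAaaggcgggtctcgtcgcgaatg
eef-1G: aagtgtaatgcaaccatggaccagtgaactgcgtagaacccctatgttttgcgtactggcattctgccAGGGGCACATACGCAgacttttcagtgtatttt
iff-2: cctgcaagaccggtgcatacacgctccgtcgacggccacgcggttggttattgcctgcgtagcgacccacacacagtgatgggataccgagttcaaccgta
eif-2Bgamma: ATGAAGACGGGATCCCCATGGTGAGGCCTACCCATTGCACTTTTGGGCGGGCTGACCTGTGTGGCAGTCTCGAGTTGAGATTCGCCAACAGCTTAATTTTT

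The run AGGGGCACATACGCA was picked out after the sequences were compared, and it was not tested. Among the 21 pairs of windows of the 7 bound genes it was the longest common run, and the next longest had 9 bases. Its middle base lay 21 bp from the eef-1A.2 summit and 25 bp from the eef-1G summit. The genome held 5 copies. Besides those 2, a pair of copies lay within 1 other conservative peak, that of icd-1 (chrII:6588950-6589253, signal 125, summit 447 bp upstream), a gene for the beta subunit of the nascent polypeptide-associated complex, 67 and 110 bp from its summit. That peak was bound in both replicates as well, with signals of 68.9 and 65.6. The last copy, at chrIV:4131740-4131754, lay 53206 bp from the nearest conservative summit and under no ranked peak. Over all 1145 conservative peaks, 457 (39.9%) shared some 15-base run with at least 1 other peak. That share counts a match to any other peak, with repeated sequences kept in. It is therefore not the rate for a pair of windows, and how rare such a pair is was not tested.

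Short motifs were looked for in the same windows on both strands. GTATTT was in 2 of the 7 windows, those of eef-1A.2 and eef-1G, and in 6.20% of all 1145 conservative windows. TTTCAG was in the eef-1G window alone, against 10.4% of all. GAGAGA (17.6% of all), GATAAG (6.20%), CACGTG (6.38%) and TATAAA (5.41%) were in none of the 7. In the eef-1G window TTTCAG and GTATTT stood near each other without overlapping, and neither overlapped the shared run there. A match or its absence describes these letters only.

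**Figure D2:**
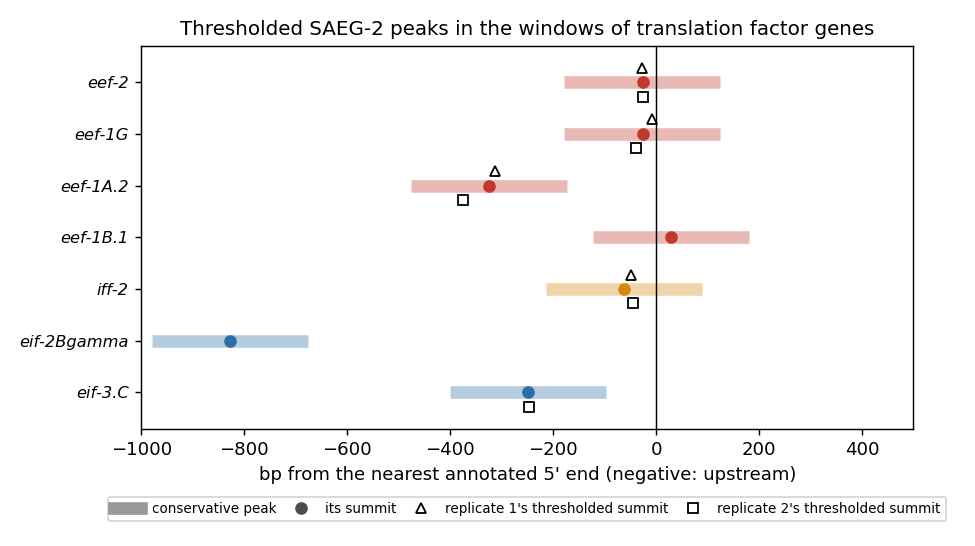
Position of thresholded peaks relative to the nearest annotated 5′ end (horizontal axis in bp, negative upstream) for the 7 bound genes, with conservative peaks as bars, their summits as filled circles, and the summits of replicate 1 (triangles) and replicate 2 (squares) where a thresholded list held the peak. The summits of eef-2, eef-1G, eef-1B.1 and iff-2 lie within 62 bp of a 5′ end, and that of eif-2Bgamma lies 828 bp upstream.

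Some of the peaks of the factor genes sat close to 5′ ends. Of the 7, 4 had a summit within 100 bp of the nearest 5′ end (57.1%), and the median of the 7 was 62 bp. The 4 were those of eef-2, eef-1G, eef-1B.1 and iff-2. The others lay 249 bp (eif-3.C), 324 bp (eef-1A.2) and 828 bp (eif-2Bgamma) upstream, so neither bound initiation factor gene was among the 4. Among all 536 conservative peaks in a window of a protein-coding gene, 18.8% were that close, at a median of 249 bp. The median signal was 138 for the 7 and 100.2 for the 536, which include the 7.

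Several of these windows hold more than 1 gene. The eef-2 summit also lay 239 bp upstream of clsp-1, the eef-1G summit 154 bp upstream of ctf-4, the eef-1B.1 summit 360 bp upstream of aco-2, which encodes mitochondrial aconitase, and the iff-2 summit 873 bp upstream of F54C9.14. In each case the factor gene's 5′ end was the nearer. All 7 genes stayed bound when a summit was given to the nearest protein-coding gene alone, with noncoding genes left aside. Noncoding RNA genes also started nearby, R03G5.8 at the eef-1A.2 summit, F54H12.9 at the eef-1B.1 summit, the small nucleolar RNA gene F54C9.12 at the iff-2 summit, and mir-1831, 21ur-14704 and C15F1.14, beside sup-39, at the eif-2Bgamma summit. Which of the genes a peak acts on was not tested. The tRNA gene nearest to any of the 7 summits lay 5114 bp away, from that of eef-1B.1. A same-strand protein-coding gene ended within 500 bp upstream, as in an operon, at 7 of 39 factor genes (17.9%) and at 19.3% of all protein-coding genes. By group this held for 6 of 31 initiation factor genes (19.4%), 1 of 6 elongation factor genes (16.7%) and 0 of 2 eIF5A genes. Both bound initiation factor genes were of this kind, eif-2Bgamma 252 bp behind C15F1.5 and eif-3.C 401 bp behind sys-1. None of the bound elongation factor and eIF5A genes was, but few genes of those groups had such a neighbour at all, and no difference was tested.

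The ranked list behind the conservative one, with 87308 peaks of any IDR, was used to describe the genes that were not bound. A ranked peak alone separates little: 6 of 6 elongation factor genes and 28 of 31 initiation factor genes had one in the window, against 74.1% of all protein-coding genes. In replicate 1's ranked list the counts were 6 of 6 and 20 of 31, against 53.7% of all, and in replicate 2's they were 5 of 6 and 22 of 31, against 55.8% of all. With an IDR of 0.05 or lower, 4 of 6 elongation factor genes, 1 of 2 eIF5A genes and 3 of 31 initiation factor genes (9.68%) had one. Over all protein-coding genes 1085 did (5.43%).

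The ranked list holds the conservative peaks, so signals over all genes of a group restate the calls in part and are given as a description. The median of the strongest ranked peak was 114.6 over elongation factor genes and 33.4 over initiation factor genes, with genes lacking a peak counted as 0, against 28.8 over all protein-coding genes. In replicate 1 the medians were 60.6 and 15.2, against 12.4 over all, and in replicate 2 they were 58.4 and 19.4, against 14.3 over all. As a percentile among all protein-coding genes, the median elongation factor gene stood at 98.5 and the median initiation factor gene at 59.5. The 29 initiation factor genes that were not bound had a median signal of 33.3, at the percentile 59.4, against 28.1 over all genes that were not bound. The 2 elongation factor genes that were not bound, eef-1A.1 with 35.0 and eef-1B.2 with 24.3, lay within the range of those initiation factor genes, 0 to 60.4.

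**Figure D3:**
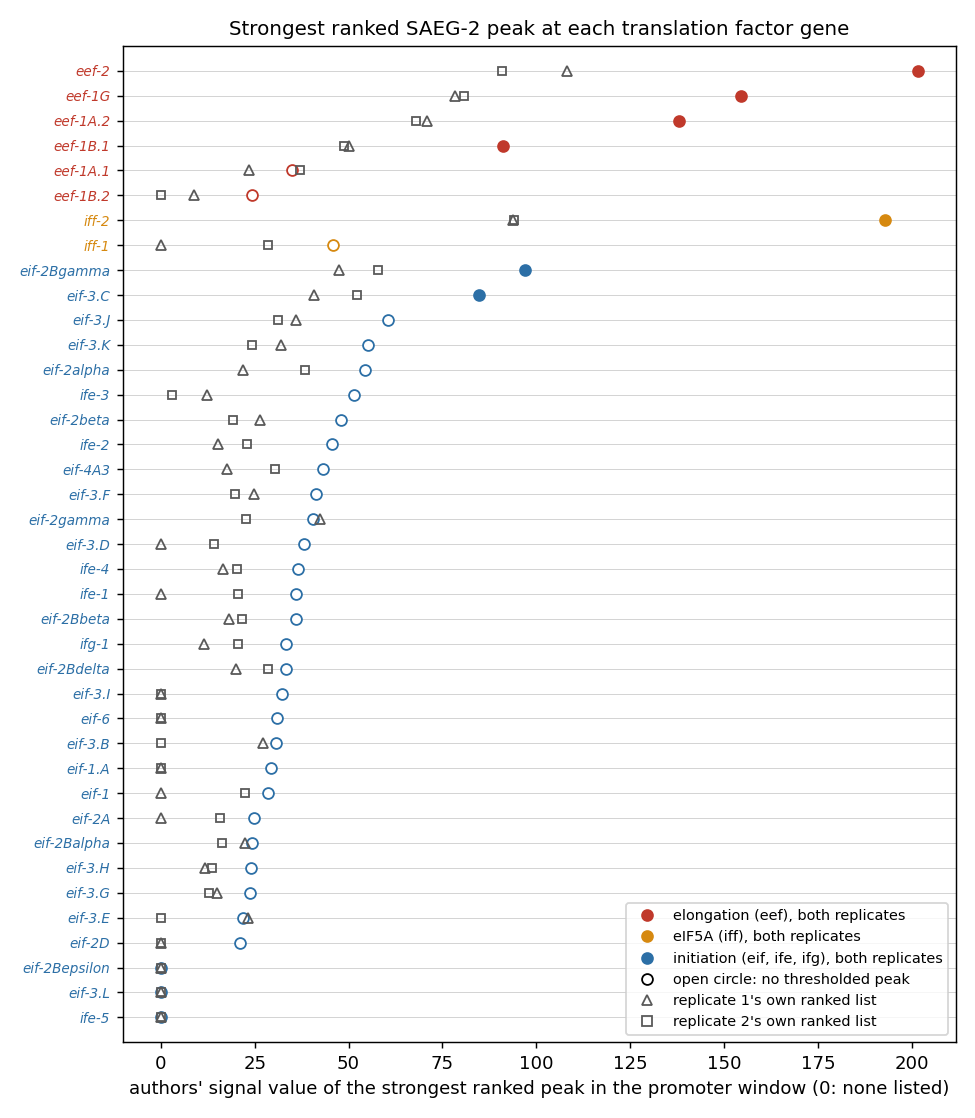
Signal of the strongest ranked peak in the window of each of the 39 genes in the list of both replicates and in each replicate's own list, on the authors' scale, ordered by the list of both replicates and coloured by group. The 7 bound genes lie at 84.9 or above in the list of both replicates, and every other gene lies at 60.4 or below.

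Among the initiation factors, the eIF2 genes had the highest family median in the ranked list, at 48.0, and no member of eIF2, eIF4F or the start codon factors was bound. The 3 subunits of eIF2, which carries the initiator tRNA, were all unbound and had 54.3 (eif-2alpha), 48.0 (eif-2beta) and 40.5 (eif-2gamma). For eif-2gamma the replicates disagreed: replicate 1 had a ranked peak with a signal of 42.4 and a −log10 IDR of 1.97, just under the threshold, 849 bp upstream, while the strongest of replicate 2 had 22.7 and a −log10 IDR of 0.0859, 548 bp upstream. The eIF2B subunits, which recharge eIF2, spanned 0 for eif-2Bepsilon to 97.0 for eif-2Bgamma, with a median of 33.3.

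The 11 eIF3 genes that the symbol rule took spanned 0 to 84.9, with a median of 32.3 and eif-3.C the highest. The next was eif-3.J with 60.4, a −log10 IDR of 1.59 and a summit 705 bp upstream, the only gene that was not bound with an IDR of 0.05 or lower. It had 35.96 in replicate 1 and 31.3 in replicate 2, but the replicates' strongest peaks lay at different places, 698 bp upstream and 196 bp downstream of a 5′ end. For eif-3.K the signal was 55.2 with a −log10 IDR of 0.155. The window of eif-3.G was missed closely, since a conservative summit with a signal of 80.2 lay 1055 bp upstream of it, in an intron of lips-10.

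None of the eIF4E and eIF4G genes of the cap-binding complex was bound. The 5 eIF4E genes and ifg-1, for the scaffold eIF4G, spanned 0 to 51.5 with a median of 36.3. The highest was ife-3, whose 51.5 in the list of both replicates stood beside 12.2 in replicate 1 and 3.03 in replicate 2. These strongest summits lay at different places, 296 bp upstream, 168 bp upstream and 118 bp downstream of a 5′ end. Another eIF4E gene, ife-2, had 45.7, with 15.2 and 23.0 in the replicates, and all 3 lists placed that peak 108 to 116 bp upstream. The start codon selection factors eif-1 and eif-1.A had 28.6 and 29.3, close to the median of all genes. The remaining genes, eif-2A, eif-2D, eif-4A3 and eif-6, spanned 21.1 to 43.3.

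Only eif-2Bepsilon, eif-3.L and ife-5 had no peak in this ranked list or in that of either replicate. In the window of eif-3.L 16.5% of the 2214 words of 36 bases occurred once in the genome, so no absence of binding is read from it. For ife-5 there was a peak with a signal of 18.9 in the other ranked list of the series. In the windows of eif-2Bepsilon and ife-5, 99.2% and 90.9% of the words occurred once in the genome. The part of repeated sequence in these zeros was not tested.

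In each of the 3 families with a pair of related genes, eEF1A, eIF5A and the eEF1B exchange subunits, 1 gene was bound and the other was not. The gene eef-1A.2 had a ranked signal of 138 and eef-1A.1 (WBGene00001168, chromosome III), the other eEF1A gene, had 35.0, at the percentile 62.8, although 94.0% of the 1389 coding bases were the same in both. In replicate 1 they had 70.9 and 23.4, and in replicate 2 they had 68.1 and 37.1. In the replicates' own ranked lists eef-1A.1 thus stood higher, at the percentiles 80.4 and 94.2, with a −log10 IDR of 0.035 and 0.493. Its strongest summits there lay 293 and 71 bp downstream of the 5′ end, against 100 bp in the list of both replicates. The nearest conservative summit to eef-1A.1 was 76266 bp away, and 98.8% of the 36-base words in each of the 2 windows occurred once in the genome.

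Of the eIF5A genes, iff-2 had 193 and iff-1 had 45.8, with 93.9 and no peak in replicate 1 and 94.0 and 28.4 in replicate 2; 380 of the 483 aligned coding bases (78.7%) were the same. The iff-1 peak lay 221 bp upstream with a −log10 IDR of 0.873. Of the exchange factor genes, eef-1B.1 had 91.1 and eef-1B.2 had 24.3, with 50.2 and 8.79 in replicate 1 and 48.8 and no peak in replicate 2. The strongest eef-1B.2 summit lay 498 bp downstream of a 5′ end in the list of both replicates and 173 bp downstream in replicate 1. The eef-1B pair had the lowest share, with 406 of 628 aligned coding bases (64.6%) in common. Its coding lengths were 639 bases for eef-1B.1 and 1320 for eef-1B.2, and 703 columns of the alignment held a gap. The eIF5A pair had 102 such columns and the eEF1A pair 0. Gaps are left out of the percentages, which thus cover unlike parts of the pairs. The pairs are described because 1 gene of each passed the threshold, so the order of the signals within a pair follows from that choice.

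**Figure D4:**
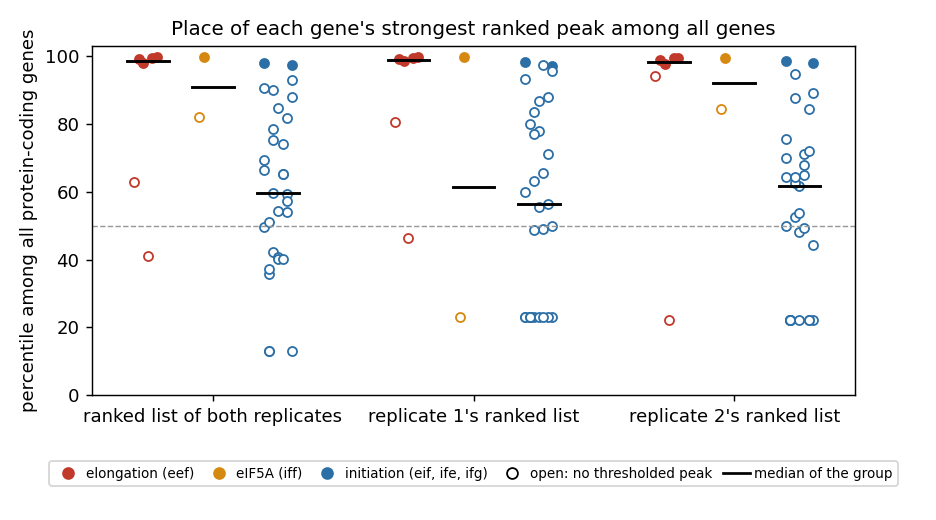
Percentile of each gene's strongest ranked signal among all protein-coding genes (vertical axis) for elongation factor, eIF5A and initiation factor genes in the list of both replicates and in each replicate's list. In the list of both replicates the median is 98.5 for elongation factor genes and 59.5 for initiation factor genes.

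Other genes of the translation machinery were counted in the same way. Of 78 cytosolic ribosomal protein genes, 20 were bound (25.6%, 17.3 to 36.3%), 12 in replicate 1 and 14 in replicate 2, with a median percentile of 85.7 in the ranked list. Of 32 aminoacyl-tRNA synthetase genes, which charge tRNAs with amino acids, 1 was bound (3.12%), the alanyl-tRNA synthetase gene aars-1, with a signal of 76.0 and a summit 91 bp upstream, and 0 were bound in replicate 1 and 0 in replicate 2. Of 15 genes for other translation factors and regulators, 3 were bound in the conservative list and in both replicates: drr-2, a factor related to eIF4H, with a signal of 294, ifet-1, the eIF4E-binding repressor, with 187, and pab-2, a poly(A)-binding protein, with 166. The eIF4A gene inf-1 was among the 15 and was not bound. For this group 16 symbols were listed, and the 15 are those found in the annotation. Of 7 symbols listed for mitochondrial translation factors, 4 were found. None of these 4 genes was bound, which allows a share of up to 49.0%. The counts stand beside 3.10% of all protein-coding genes in the conservative list, 1.48% in replicate 1's list and 1.63% in replicate 2's. The differences between the groups of genes were not tested.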

How the data were processed

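ChIP-seq peak lists on ce11, the assembly WBcel235, were used as deposited. Per the deposited file list, the lists of the whole series derive from the filtered alignments of both replicates (pooled) and those of a replicate from its alignments alone, together with a further file of unstated kind; thresholded lists derive from an additional one. The sources used here do not name the aligner, the peak caller or any version. The signal of each peak is the authors' value, deposited on an unstated scale. The −log10 IDR is deposited by the authors in the ranked lists, capped at 5. Thresholded lists held peaks with an IDR of 0.01 or lower, but 58 such ranked peaks were missing from the conservative list. The ranked list behind the conservative one was identified by its holding all 1145 conservative peaks. The ranked lists also hold 8 columns of values per replicate that were not used.

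Computed here, with Python 3.11.15, scipy 1.17.1, Biopython 1.88 (coding alignments) and matplotlib 3.10.9, were the windows on Ensembl release 115 genes, Wilson intervals at 95%, the strongest ranked peak per gene (0 where none), its percentile, and repeats of 36-base words in the RefSeq sequence. The window rule was tested on simulated summits. Overlap meant at least 1 bp. All 39 genes were named by the rule, with no filter. The genes, gene lists and motifs were chosen with earlier results of these data known, and neither depth nor a test between groups was available. Leaving out a replicate meant using the other's thresholded list.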

Additional observations from a re-analysis of the deposited data

How the results depend on the processing

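Of 43 alternative values, 36 kept their count within 1.5 times that reported. With 1 replicate's list in place of the conservative one, 4 to 5 of 39 translation factor genes were bound, against 7, with 3 elongation factor genes in either, against 4, and 0 to 1 initiation factor genes, against 2. Over all protein-coding genes the share was 1.48% in replicate 1's list and 1.63% in replicate 2's, against 3.10%. The initiation count was also 1 of 31 (3.23%) with a window of 500 bp upstream to 200 bp downstream, against 2.18% of all protein-coding genes. The gene kept in that window was eif-3.C. With the conservative peaks at or above the median signal the count was 1 of 31, against 1.86% of all. There the gene was eif-2Bgamma, whose signal of 96.96 only just passed the median of 96.91. Without summits inside small RNA genes the count was again 1 of 31, and the gene was eif-3.C. In that setting, chosen after seeing the data, 6 of 39 factor genes and 2.97% of all protein-coding genes were bound. With ranked peaks limited to an IDR of 0.05 or lower, 3 of 31 initiation factor genes had one, against 28 in the full ranked list. Over all protein-coding genes the shares were 5.43% and 74.1%. No paired analysis was possible because the samples form 1 group. Counts this small, an unknown depth and the lack of a control analysed here limit every share given.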
